A study of Mus musculus with 27 samples.

Results

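The transcriptome of epididymal adipose tissue (EAT) was compared between mice fed a Western diet that contained quercetin and mice fed the control diet, that is, for the differences from the control diet that were present while quercetin was given. Arrays were chosen by diet label alone, which gave 9 control diet and 9 quercetin Western diet arrays, 18 of the 27 arrays of the series, and the other 9 arrays (Western diet without quercetin) are given beside them. All 18193 genes with a probe set assigned to 1 gene were compared, and a gene with several was read from the one that was brightest on average across the 27 arrays. The mice were male C57BL/6J, obtained at 5 weeks of age and kept on a standard diet for 1 week. They were then fed for 18 weeks on AIN93G, the purified rodent diet used as control, or on a Western diet with or without 0.05% quercetin. The Western diet took 39.9% of its energy from fat and 34.0% from sucrose, and held 20% butter, 1% soy oil and 0.15% cholesterol. Each array held RNA of 1 mouse, and mice were housed 3 to a cage. Which mice shared a cage is not given in the sources used here, so the SEs and p-values below treat the 9 mice of a diet as independent.

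EAT is the visceral fat depot attached to the epididymis. In obesity its adipocytes enlarge, macrophages gather around dying adipocytes and take up their lipid, and the matrix between the cells thickens. Quercetin is a plant flavonol, found for example in onions, that is studied as an antioxidant food component. Dietary cholesterol and fatty acids reach adipocytes and macrophages by different routes, and cells adjust to them through sterol-sensing factors, which drive cholesterol synthesis when sterols in the membrane are low, and through factors that drive cholesterol export when sterols are high.

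All values below are log2 intensities after quantile normalization, differences are on the same log2 scale with the standard error (SE) of the limma fit, and a gene is called when its Benjamini-Hochberg adjusted p from limma was under 0.05. With 9 arrays per diet, values are given as the lowest, median and highest array.

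The arrays carried an adipose profile. The mean of 9 adipocyte identity genes, among them Adipoq, Fabp4 and Cidec, lay between 11.79 and 12.44 on the control arrays and between 11.92 and 12.28 on the quercetin arrays, and none of the 9 was called in either direction. Hepatocyte markers were checked because the labels describe extraction from liver while giving the tissue as epididymal adipose tissue. Their mean lay between 2.43 and 7.89 on the control arrays and between 2.31 and 8.58 on the quercetin arrays, and reached 10.77 on the Western diet arrays. It was below the adipocyte mean on each of the 18 arrays, and 0 of 8 were called. The spread between arrays was wide, and all 8 differences were positive (median 0.66). Without the 9 arrays described next the median was −0.22. Hepatocyte markers were not used to choose those arrays, and what made them high on single arrays was not tested. Single arrays carried transcripts of neighbouring tissues. Smooth muscle markers were high on control arrays 2 and 4, B cell and lymph node stroma markers on control array 3, and testis markers on control arrays 4, 6 and 9 and quercetin arrays 3 and 5. Testis markers were also high on Western diet arrays 6 and 7. Where arrays high in markers of neighbouring tissues are left out below, these 9 arrays are meant. Most control arrays are among them, so calls lost in that setting cannot be told apart from an effect of fewer mice. The log2 3′ to 5′ probe set ratios, a sign of RNA length, differed between these 2 diets by 0.049 for Gapdh (exact permutation p = 0.6243, two-sided) and by 0.026 for actin (p = 0.8241, exact permutation, two-sided). On the Western diet arrays the actin ratio ran from 0.58 to 0.92, against 0.84 to 1.62 on control and 0.87 to 1.37 on quercetin arrays. The Gapdh ratio ran from −0.27 to 0.14, against −0.20 to 0.50 and −0.05 to 0.41. Its part in the Western diet values given below was not tested. Quercetin array 3 stood apart from the other 8 quercetin arrays in several genes described here. It had the lowest mean of the lipid-associated macrophage genes of all 18 arrays, and list counts that move by over 1.5 times without it are also given without it.

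Despite quercetin, 1211 genes (6.66% of the 18193 tested) differed from the control diet, of which 910 were higher (5.00%) and 301 lower (1.65%). The difference was positive for 9832 of the 18193 genes, and the list counts below are to be read beside these shares. Mice fed the Western diet without quercetin differed from the same control mice in 2047 higher (11.3%) and 1172 lower genes (6.44%). Between the 2 Western diets, 46 genes were higher (0.253%) and 14 lower (0.0770%) with quercetin. The median over all genes was 0.03, the median of the genes called higher was 0.52 and that of the genes called lower −0.44, and 139 higher and 58 lower genes changed over 2-fold. The number of calls depended on single arrays, on scaling and on the Western diet arrays, which share the limma estimate of the spread. A fit of only the 2 diets gave 348 higher and 89 lower genes. When single arrays were left out, the number of calls lay between 545 (without quercetin array 7) and 1410 (without control array 3) for higher genes. For lower genes it lay between 158 (without quercetin array 4) and 597 (without control array 6). Without quercetin array 3 it was 1204 higher and 452 lower, and without the arrays high in markers of neighbouring tissues 549 and 414. Intensities left unscaled between arrays gave 268 and 38, so that 87.6% of the calls were higher in place of 75.1%. In bulk tissue, more cells of a type and more RNA per cell cannot be told apart.

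**Figure D1:**
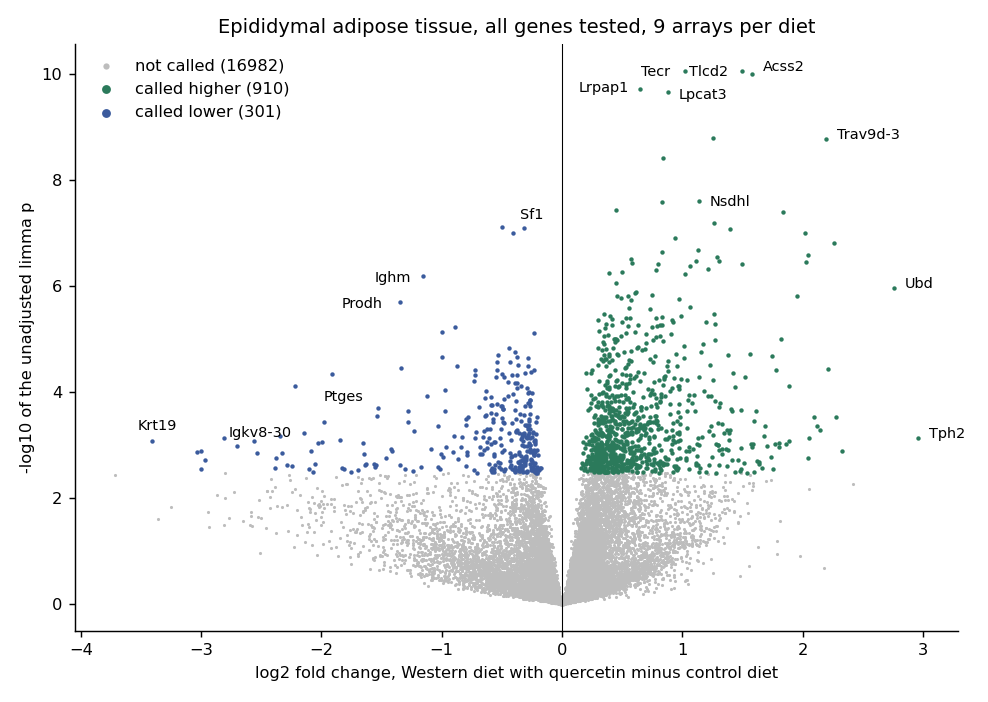
Log2 fold change of each of the 18193 genes between the Western diet with quercetin and the control diet (horizontal axis) against −log10 of its unadjusted limma p (vertical axis). Green points are the 910 genes called higher, blue points the 301 called lower and grey points the genes not called, and the genes with the smallest p, among them Tecr, Tlcd2, Acss2, Lrpap1 and Lpcat3, all lie on the higher side.

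The 10 genes with the smallest p were all higher than on the control diet. Acss2, which makes acetyl-CoA from acetate in the cytosol, ran from 9.48 to 10.84 (median 10.21) in the control mice and from 11.37 to 12.39 (median 11.85) in the quercetin mice. Each quercetin mouse lay above each control mouse, and the difference was 1.58 ± 0.16 (SE, n = 9 per diet, limma adjusted p = 6.18e-07), or 2.99-fold. Tecr, the reductase that completes each round of very-long-chain fatty acid elongation, had control values of 9.68, 10.18 and 10.60 (lowest, median, highest) and quercetin values of 10.88, 11.28 and 11.55. Its ranges did not meet either, and it was 1.02 ± 0.10 higher. Lpcat3 places polyunsaturated acyl chains into membrane phospholipids. It ran from 9.16 to 9.87 (median 9.46) against 10.23 to 10.57 (median 10.42), again with no overlap, and was 0.88 ± 0.09 higher. Tlcd2, a membrane protein that affects membrane lipid composition, went from a control range of 7.53 to 8.57 (median 8.17) to 9.25 to 10.18 (median 9.43), a difference of 1.49 ± 0.15.

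Of the other genes in this set, Lrpap1, the chaperone of the lipoprotein receptor family, was 0.65 ± 0.07 higher, Pltp, which transfers phospholipid between lipoproteins, 0.83 ± 0.11, Slc36a2, a transporter of small amino acids that is abundant in adipocytes, 0.84 ± 0.10, and Recql4, a DNA helicase, 1.26 ± 0.14. The control and quercetin values of Lrpap1, Slc36a2 and Recql4 did not overlap, whereas 3 quercetin mice lay within the control range of Pltp, where control mouse 1 was high at 12.34. The set also held Trav9d-3, a T cell receptor variable segment, at 2.20 ± 0.25. Variable segments resemble each other in sequence and 1 of its 5 probe sets went the other way, so its identity is uncertain. In the Western diet mice without quercetin the same genes stood at 1.05 (Acss2), 0.99 (Tecr), 0.76 (Lpcat3) and 0.91 (Tlcd2) above the control diet. The difference between the 2 Western diets did not pass the test for any of these 4, with limma adjusted p of 0.12, 0.94, 0.63 and 0.078, so a lower or higher level with quercetin than without was not detectable.

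**Figure D2:**
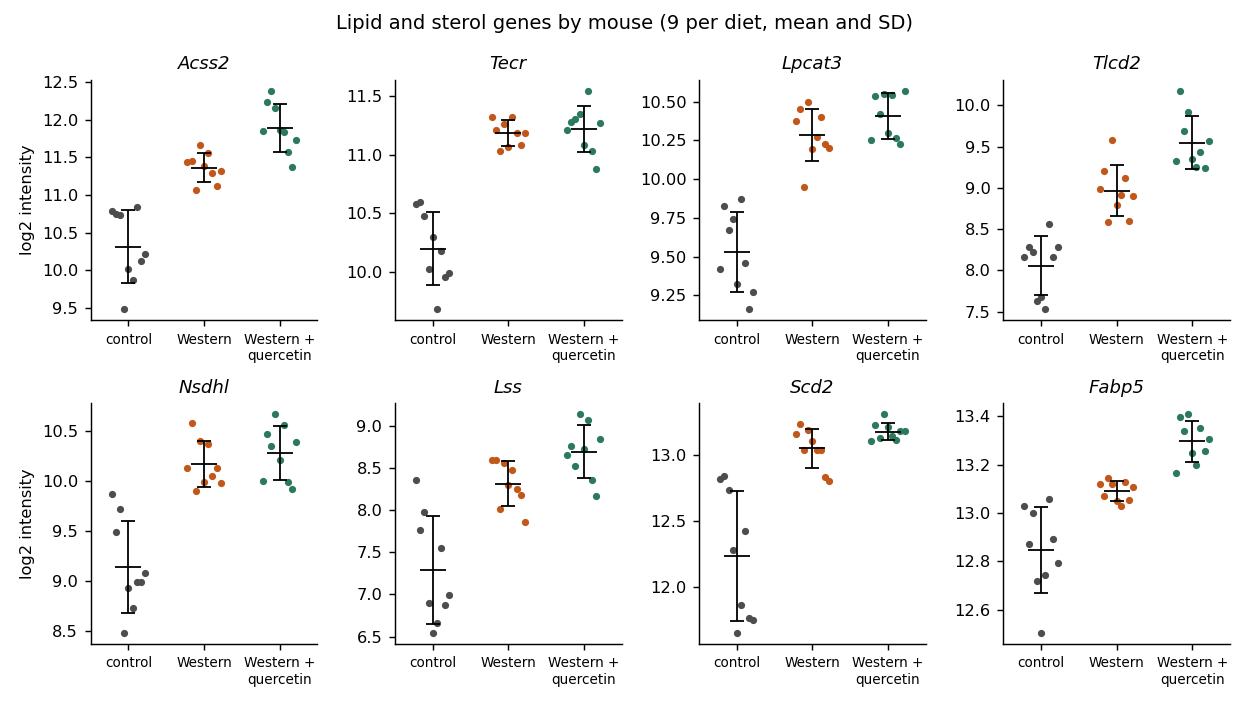
Log2 intensity of 8 lipid and sterol genes (vertical axes) in each mouse of the 3 diets (horizontal axes). Each point is 1 mouse, and the bars are the mean and SD of 9 mice. For Acss2, Tecr, Lpcat3, Tlcd2, Nsdhl, Scd2 and Fabp5 the lowest quercetin mouse lies above the highest control mouse.

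Across all genes, the 9 control and 9 quercetin values did not overlap for 42 higher (0.231%) and 4 lower genes (0.0220%). Of the 42, Scd2, a stearoyl-CoA desaturase, ran from 11.65 to 12.84 (median 12.28) in control mice and from 13.11 to 13.31 (median 13.18) in quercetin mice, a narrow band well above the controls (0.94 ± 0.13). Fabp5, a fatty acid carrier of adipocytes and macrophages, had a control range of 12.50 to 13.06 and a quercetin range of 13.16 to 13.41, a difference of 0.45 ± 0.06. Rflna, a filamin-binding protein, was 2.02 ± 0.28 higher, with 1 of its 2 probe sets going the other way. A phospholipase and a prostaglandin receptor were also among the 42, and were picked out after their values were seen. Pla2g2e, a secreted phospholipase A2 of adipocytes, went from 5.50 to 8.31 (median 6.82) to 8.45 to 9.37 (median 8.86), and Ptger3, a receptor for prostaglandin E2, from 9.34 to 11.11 (median 9.91) to 11.17 to 11.87 (median 11.29). The 4 lower genes, also named after their values were seen, differed by small amounts and belong to general cell functions. They were Ccni, an atypical cyclin (−0.50 ± 0.07), Sf1, a splicing factor (−0.32 ± 0.04), Usp7, a deubiquitinase (−0.23 ± 0.04), and Fau, a ribosomal protein fusion (−0.18 ± 0.06). Ccni turned to 0.012 in the mean over its 4 probe sets, and the call of Fau was lost in 21 of 30 alternatives. Without scaling between arrays the groups did not overlap for 14 higher and 0 lower genes.

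Cholesterol synthesis genes were higher in most members of their list. The list named cholesterol synthesis and uptake had 16 measured genes, and 11 of them were higher, 0 lower and 5 not called, with a list median of 0.71 beside 0.03 for all genes. In the Western diet mice without quercetin 9 were higher and 1 lower, with a median of 0.51, and 0 of the 16 were called between the 2 Western diets. Leaving out single arrays gave 9 to 12 higher genes, and 6 were called without the arrays high in markers of neighbouring tissues as well as without scaling. Lss, which closes the sterol ring, went from 6.54 to 8.36 (median 6.99) in control mice to 8.16 to 9.13 (median 8.72) in quercetin mice. Only 1 quercetin mouse lay within the control range, and the difference was 1.40 ± 0.20 (limma adjusted p = 9.78e-05). Nsdhl, a later enzyme of the pathway, went from 8.48 to 9.87 (median 8.995) to 9.92 to 10.67 (median 10.35) without overlap, 1.14 ± 0.15 higher.

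Insig1, which holds the sterol-sensing factor SREBP in the endoplasmic reticulum and is itself induced by it, was 1.27 ± 0.23 higher. Its control values were spread widely, from 9.65 to 12.03 (median 10.36), while the quercetin values kept to 11.80 to 12.30 (median 12.01). Control mice 1, 2 and 3, at 12.03, 11.70 and 11.72, were the highest of the 9, and the other 6 control mice lay at or below 10.73. The same 3 control mice had the highest means of the cholesterol synthesis and uptake list, 8.92 to 9.15, against 8.00 to 8.43 in the other 6 and 8.81 to 9.47 in the quercetin mice. Hmgcs1, which makes the precursor of mevalonate, went from 11.33 to 12.31 (median 11.79) to 11.91 to 12.66 (median 12.47) and was 0.64 ± 0.12 higher.

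The promoters of Hmgcs1 and Insig1 are shown as examples of the sterol genes that were higher together, and were chosen after the values were seen. Both are the 150 bases before the gene start on the gene's strand, from RefSeq on GRCm38.p6. Hmgcs1 is on the plus strand at chr13:119690201-119690350, and capitals mark TCACNCCAC, the letters of a sterol regulatory element. Insig1 is on the plus strand at chr5:28071262-28071411, and capitals mark CACGTG, an E-box.
Hmgcs1: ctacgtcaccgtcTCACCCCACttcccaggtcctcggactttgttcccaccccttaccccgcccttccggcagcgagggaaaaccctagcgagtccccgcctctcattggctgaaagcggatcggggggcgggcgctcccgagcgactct
Insig1: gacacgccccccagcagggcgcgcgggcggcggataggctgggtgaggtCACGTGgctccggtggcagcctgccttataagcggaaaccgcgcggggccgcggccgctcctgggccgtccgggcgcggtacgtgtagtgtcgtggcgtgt
Both motifs were searched on both strands from 250 bases before to 50 bases after each gene start. TCACNCCAC was found for 1 of the 13 genes of the sterol list with a window (7.69%), Hmgcs1, and in 1.24% of all 32851 windows. CACGTG was found for 3 of the 13 (23.1%) and in 7.15% of all windows. By gene, TCACNCCAC was found for 1.46% and CACGTG for 10.2% of the 14452 tested genes with a window. These are matches of letters in a short window, and say nothing about binding.

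Genes that move cholesterol out of lysosomes and cells were higher in part. Of 12 measured genes of cholesterol export and handling, 6 were higher and 0 lower (median 0.40), with 5 to 7 higher when single arrays were left out. Lipa, Npc1 and Npc2 are also members of the lysosomal list below, and Lipa of the lipid-associated macrophage list. In the Western diet mice without quercetin, 10 of the 12 were higher, and none of the 12 was called between the 2 Western diets. Abcg1, which exports cholesterol to high-density lipoprotein, went from 8.29 to 9.43 (median 8.70) to 9.04 to 10.39 (median 9.80), with 7 of 9 quercetin mice above the control range (0.95 ± 0.18). Npc2, which hands cholesterol from the lysosome lumen to its membrane, was 0.45 ± 0.07 higher, and Scarb1, the receptor for high-density lipoprotein, was 0.50 ± 0.09 higher, with both named outside the rule for naming genes. Of 18 genes of de novo lipogenesis, 4 were higher and 1 lower (median 0.10), with 2 higher without control array 4 or quercetin array 4, and 2 higher and 2 lower (median −0.04) without the arrays high in markers of neighbouring tissues. The lower one, Mlxipl, encodes ChREBP, the carbohydrate-responsive factor of lipogenesis. It went from 8.20 to 9.78 (median 9.22) to 8.23 to 9.14 (median 8.40), all quercetin mice within the control range (−0.62 ± 0.16, limma adjusted p = 0.018).

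**Figure D3:**
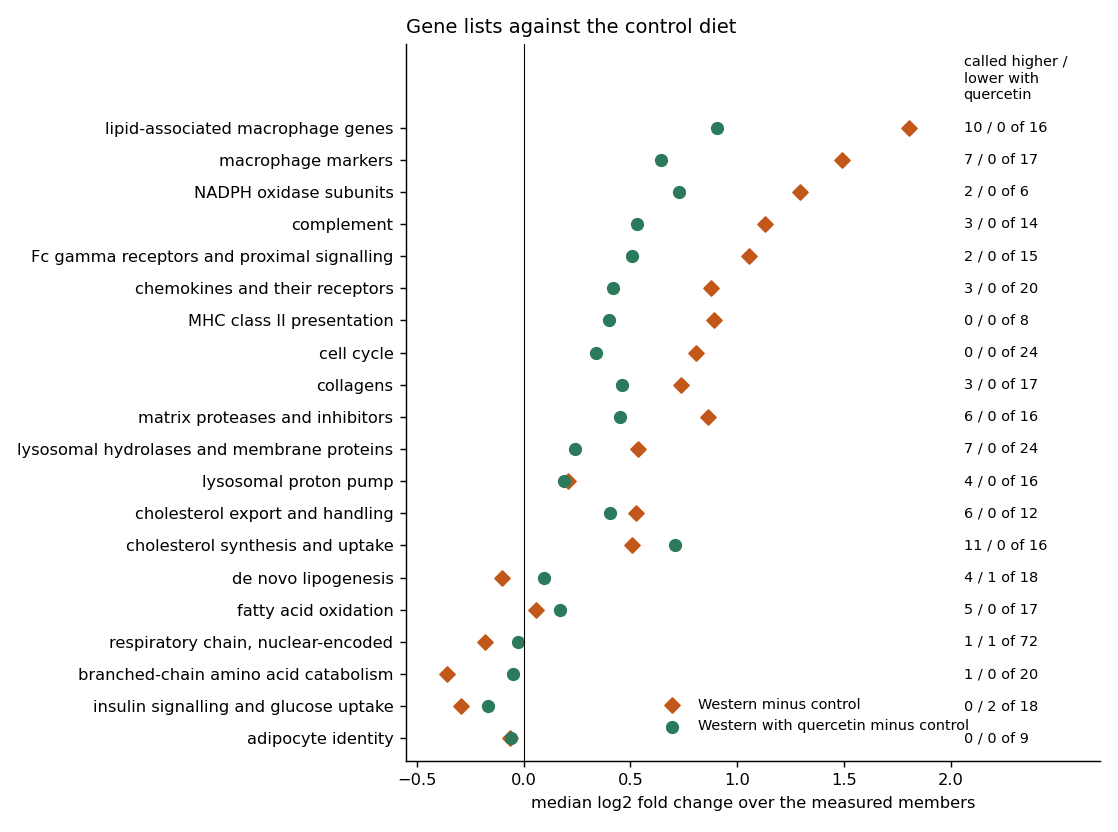
Median log2 fold change over the measured members of 20 gene lists (horizontal axis), for the Western diet with quercetin (green circles) and without it (orange diamonds), both against the same 9 control mice. The numbers at the right are the members called higher and lower with quercetin, of those measured. With quercetin, cholesterol synthesis and uptake has 11 of 16 members called higher and a median of 0.71, and lipid-associated macrophage genes have 10 of 16 and a median of 0.91.

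Macrophage genes stayed above the control diet with a wide spread between mice. Of 16 lipid-associated macrophage genes, a set named for macrophages that take up adipocyte lipid, 10 were higher, 0 lower and 6 not called, with a median of 0.91. The 10 include Fabp5, a carrier of adipocytes as well as macrophages, and Plin2, a coat protein of lipid droplets. The count is therefore not read from macrophages alone. Of 17 general macrophage markers, 7 were higher and 0 lower (median 0.64). Without quercetin the counts were 15 and 14 higher, with medians of 1.80 and 1.49. No member of either list was called between the 2 Western diets. The lists depended on single arrays. Lipid-associated macrophage genes called higher were 5 without quercetin array 7 or 8, 6 without quercetin array 9, and 12 without quercetin array 3 or control array 3. Macrophage markers called higher were 3 without quercetin array 7, 8 or 9, 4 without control array 4 or 8, 11 without quercetin array 3 and 13 without control array 3. Without the arrays high in markers of neighbouring tissues, 6 lipid-associated genes were higher, and 1 macrophage marker was higher and 1 lower.

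Atp6v0d2, a proton pump subunit of macrophages and osteoclasts, ran from 4.92 to 7.92 (median 6.55) in control mice and from 5.72 to 10.16 (median 8.49) in quercetin mice. Quercetin mice 7, 8 and 9 lay at 10.09 to 10.16, near the Western diet median of 10.36, while mouse 3 lay at 5.72 within the control range (2.09 ± 0.51, limma adjusted p = 0.0137). Adgre1, the macrophage marker F4/80, went from 8.21 to 9.26 (median 8.53) to 8.97 to 10.48 (median 9.66), and 8 of 9 quercetin mice lay above the control range (1.17 ± 0.22). Cd68, a lysosomal glycoprotein of macrophages, went from 7.78 to 9.56 (median 8.27) to 8.16 to 11.002 (median 9.66), 1.37 ± 0.35 higher. Its highest quercetin values were again those of mice 7, 8 and 9, at 10.82 to 11.002. Itgax, the integrin CD11c of inflammatory macrophages, had a quercetin range of 6.29 to 9.48 that reached below and above the control range of 6.30 to 8.44. It was 1.13 ± 0.34 higher (limma adjusted p = 0.0417), a call that was lost in 19 of 30 alternatives. Gpnmb, a membrane glycoprotein of lipid-laden macrophages, had a similar spread, 7.09 to 9.51 against 6.97 to 11.46 (1.54 ± 0.48, limma adjusted p = 0.0499), and its call was lost in 23 of 30. Tyrobp, the adaptor of TREM2 and other myeloid receptors, was 1.05 ± 0.29 higher.

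**Figure D4:**
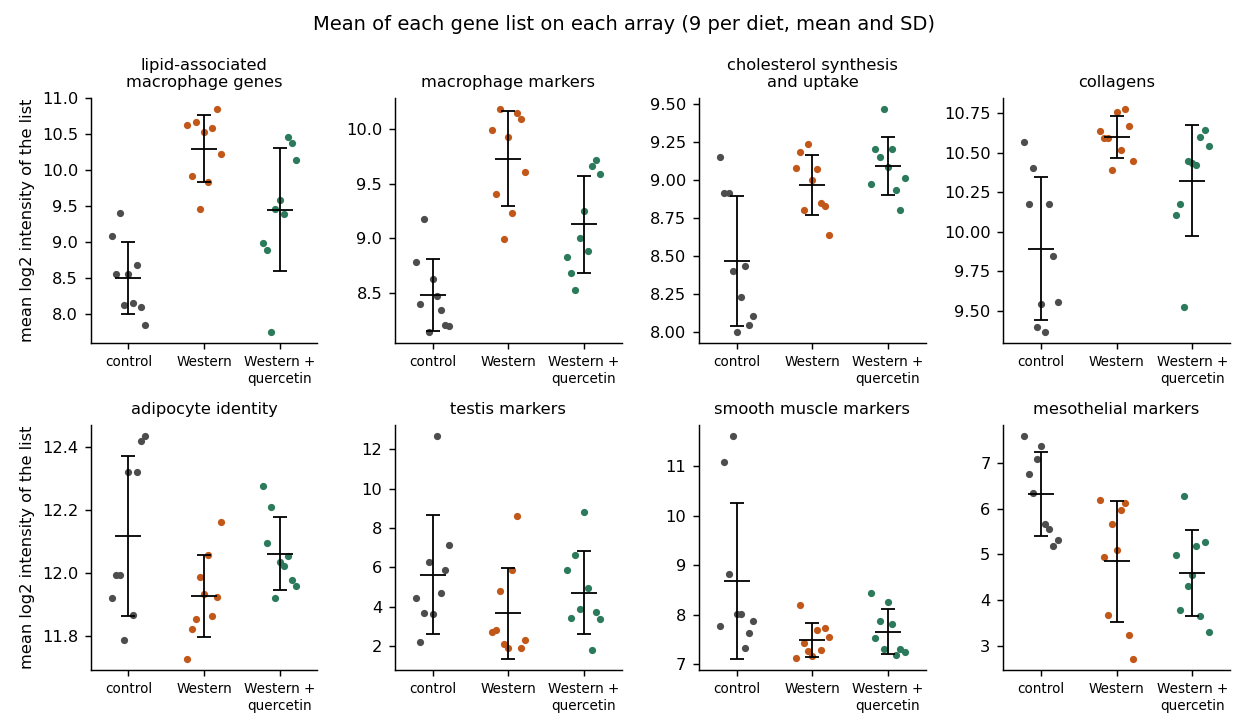
Mean log2 intensity of 8 gene lists (vertical axes) on each array of the 3 diets (horizontal axes). Each point is 1 mouse, and the bars are the mean and SD of 9 mice. In the lipid-associated macrophage genes, quercetin mouse 3 lies at 7.75 and mice 7, 8 and 9 at 10.15 to 10.46, while the control mice span 7.84 to 9.40.

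Lysosomal genes differed by smaller amounts. All 24 measured lysosomal hydrolases and membrane proteins had positive differences, of which 7 were called higher (median 0.24). All 16 measured subunits of the lysosomal proton pump were positive too, of which 4 were called higher (median 0.19). Over all genes, 5.00% were called higher, and 9832 of 18193 differences were positive. Leaving out single arrays gave 4 to 12 and 2 to 5 called genes. Fewest hydrolases were called without quercetin array 7 or 8, and most without control array 1 or 3, with 11 without quercetin array 3. The pump count was 2 without any 1 of control arrays 5, 8 and 9 and quercetin arrays 4, 7, 8 and 9. Ctsk, a collagen-degrading cathepsin, was 1.13 ± 0.30 higher, Lipa, the acid lipase that frees cholesterol and fatty acids from lipoproteins, 0.96 ± 0.25, and Gusb, a glucuronidase, 0.74 ± 0.17. Lipa went from 8.66 to 9.84 (median 9.19) to 9.02 to 11.15 (median 10.001), and mice 7, 8 and 9 were the highest at 10.80 to 11.15. The macrophage markers above had a list mean of 8.15 to 9.17 on control arrays and 8.54 to 9.71 on quercetin arrays. Whether they move with the lysosomal lists across mice, and their part in the lysosomal differences, was not tested.

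Promoters of 4 lysosomal genes are printed because CACGTG is the core of the element recognised by TFEB, the factor that drives lysosomal genes. Each is the 150 bases before the gene start on the gene's strand, from RefSeq on GRCm38.p6, with CACGTG in capitals, and the 4 were chosen after the values were seen. Ctsd is at chr7:142387828-142387977 on the minus strand, Glb1 at chr9:114400928-114401077 on the plus strand, Atp6v1a at chr16:44139260-44139409 on the minus strand and Lamp1 at chr8:13159011-13159160 on the plus strand.
Ctsd: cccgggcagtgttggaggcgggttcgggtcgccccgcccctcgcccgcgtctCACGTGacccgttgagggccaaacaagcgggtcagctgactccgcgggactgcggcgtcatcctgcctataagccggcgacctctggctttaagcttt
Glb1: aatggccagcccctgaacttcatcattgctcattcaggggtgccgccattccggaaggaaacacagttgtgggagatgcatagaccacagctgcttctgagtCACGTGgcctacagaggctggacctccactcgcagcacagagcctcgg
Atp6v1a: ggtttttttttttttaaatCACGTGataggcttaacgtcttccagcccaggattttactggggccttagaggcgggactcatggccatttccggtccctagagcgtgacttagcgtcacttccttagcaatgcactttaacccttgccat
Lamp1: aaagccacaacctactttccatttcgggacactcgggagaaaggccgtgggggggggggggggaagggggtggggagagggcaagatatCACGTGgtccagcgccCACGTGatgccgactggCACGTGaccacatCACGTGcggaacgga
In windows from 250 bases before to 50 bases after the start, CACGTG was found for 7 of 19 hydrolase and membrane protein genes (36.8%) and 4 of 11 proton pump genes (36.4%), beside 7.15% of all 32851 windows and 10.2% of the tested genes with a window. Among the members called higher it was found for 2 of 6 (33.3%) and 2 of 3 (66.7%), and whether the motif goes with the differences was not tested. Lamp1, a lysosomal membrane protein with 4 matches, had control values of 12.00, 12.15 and 12.33 and quercetin values of 12.01, 12.22 and 12.34 (0.03 ± 0.06, limma adjusted p = 0.839). Ctsd, the aspartic cathepsin, was 0.41 ± 0.08 higher, Glb1, the acid galactosidase, 0.40 ± 0.11, Atp6v1e1, a stalk subunit of the pump, 0.31 ± 0.06, and Atp6v1a, the catalytic pump subunit, 0.35 ± 0.11 (limma adjusted p = 0.0431), the last with its call lost in 19 of 30 alternatives.

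Other immune lists had positive medians with few calls, where 5.00% of all genes were called higher and 1.65% lower. Of 14 complement genes 3 were higher (median 0.53), of 16 genes of Toll-like receptor and NF-κB signalling 4 (median 0.32), of 20 chemokines and their receptors 3 (median 0.42), and of 15 Fc gamma receptor genes 2 (median 0.51). None of 8 genes of MHC class II presentation (median 0.40) or 24 cell cycle genes (median 0.34) was called in either direction. On the Western diet alone the counts of these 6 lists, in the same order, were 13, 11, 14, 15, 7 and 11 higher. Between the 2 Western diets, no member of these 6 lists was called. The counts with quercetin rested on single arrays. When 1 array was left out, complement genes called higher ran from 0 (without quercetin array 7, 8 or 9) to 10 (without control array 3), Toll-like receptor and NF-κB genes from 1 (without control array 4 or 9 or quercetin array 5, 7, 8 or 9) to 6 (without control array 1 or 3), and chemokine genes from 1 (without control array 4 or quercetin array 4, 5, 8 or 9) to 7 (without control array 3). Fc gamma receptor genes ran from 0 (without any 1 of 11 arrays) to 9 (without control array 3), MHC class II genes from 0 to 4 (without control array 3), and cell cycle genes from 0 to 2 (without control array 3 or 6). Without quercetin array 3 the counts in that order were 7, 5, 5, 4, 2 and 1. Without the arrays high in markers of neighbouring tissues they were 1, 1, 2, 1, 1 and 6, with 1 complement gene lower and a cell cycle median of 0.67.

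Matrix genes were partly above the control diet. Of 16 matrix proteases and inhibitors 6 were higher and 0 lower (median 0.45), and of 17 collagens 3 were higher, with all 17 differences positive (median 0.46). Among all genes the share called higher was 5.00%, and 9832 of 18193 differences were positive. Collagen calls depended on single arrays, with 10 called without quercetin array 3, 7 without control array 3, 6 without control array 1, 1 without control array 8 or 9 or quercetin array 4, and 0 without quercetin array 8 or 9 or without the arrays high in markers of neighbouring tissues. Adam12, a metalloprotease of remodelling tissue, went from 7.12 to 8.47 (median 7.42) to 8.31 to 9.07 (median 8.78). All but 1 quercetin mouse lay above the control range, and the difference was 1.06 ± 0.16 (limma adjusted p = 0.000239), beside 0.99 without quercetin. Mmp3, stromelysin, was 1.52 ± 0.32 higher and Adam8, a metalloprotease of leukocytes, 1.49 ± 0.41. Proteases called higher were 2 without quercetin array 7, 8 or 9 or control array 4, and 3 without quercetin array 4 or control array 6. Lum, a small proteoglycan that binds collagen fibrils, went from 8.63 to 10.59 (median 9.41) to 9.65 to 11.24 (median 10.61), 0.87 ± 0.23 higher. The fibrillar collagens Col1a1 and Col3a1 and the fibril-associated Col14a1 were 0.81 ± 0.24, 0.37 ± 0.10 and 0.60 ± 0.17 higher, and the Col1a1 call was lost in 18 of 30 alternatives.

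The largest rises among genes above the median intensity were in genes of mixed function. Tph2, the tryptophan hydroxylase known from serotonin neurons, ran from 3.31 to 9.70 (median 4.92) in control mice and from 4.37 to 10.12 (median 9.69) in quercetin mice (2.96 ± 0.78, limma adjusted p = 0.022). Its values split within both diets. Quercetin mice 4 to 9 lay at 9.50 to 10.12 and mice 1 to 3 at 4.37 to 6.92, while control mice 1 and 3, at 8.01 and 9.70, lay above the other 7 controls. The Western diet median was 10.67. Of 10 genes of serotonin synthesis, breakdown and sensing, 3 were called higher and 0 lower, and 1 of the 3, the receptor Htr2b, lay near background. Without quercetin array 3 or control array 3 or 6, 1 member was lower. The control range of Htr2b was 0.08 to 3.06 and its quercetin range 1.28 to 5.00. The difference of 2.28 ± 0.55 was 0.00 with intensities set to at least 32, and the call was lost without the arrays high in markers of neighbouring tissues. The third was Maoa, which breaks serotonin down (0.60 ± 0.14, with 1 of 2 probe sets going the other way).

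Ubd, a ubiquitin-like modifier induced by cytokines, went from 6.38 to 10.07 (median 7.62) to 8.18 to 11.68 (median 11.20). It was 2.76 ± 0.44 higher (limma adjusted p = 0.000488), and the control range was exceeded in 6 of 9 quercetin mice. Ncan, a chondroitin sulfate proteoglycan known from brain, was 2.27 ± 0.33 higher with 8 of 9 quercetin mice above the control range. Tfr2, a transferrin receptor that takes part in iron sensing, was 2.22 ± 0.45 higher, Prune2, a protein known from neural tissue, 2.05 ± 0.30, and Lipf, an acid lipase known from stomach, 1.89 ± 0.50. The acute-phase genes Saa3, serum amyloid A of fat and macrophages, and Orm2, orosomucoid, were 1.86 ± 0.50 and 1.40 ± 0.36 higher, and only 1 quercetin mouse exceeded the highest control value of Saa3, that of control mouse 3 at 10.24. They were the 2 called of 11 acute-phase genes, of which 6 differences were positive and 5 negative. Leaving out single arrays gave 1 to 4 called higher. Without the arrays high in markers of neighbouring tissues 1 of the 11 was higher, and without scaling 0. Of 15 T cell markers 2 were called higher, Zap70 (0.78 ± 0.22) and Cd8a (0.59 ± 0.17), with 0 called without quercetin array 2, 4, 8 or 9 or without the arrays high in markers of neighbouring tissues. They had 1 of 3 and 3 of 5 probe sets going the other way, and the mean over their probe sets turned to −0.087 and −0.049.

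A minority of the fatty acid oxidation genes was higher. Of 17, 5 were higher, 0 lower and 12 not called (median 0.17), and 3 to 5 were higher when single arrays were left out. Both without scaling and without the arrays high in markers of neighbouring tissues 2 were higher. On the Western diet without quercetin 1 was higher and 2 were lower (median 0.06). Slc25a20, the carrier of acylcarnitine into mitochondria, went from 9.99 to 10.47 (median 10.27) to 10.47 to 10.83 (median 10.66), with 8 of 9 quercetin mice above the control range (0.39 ± 0.06, limma adjusted p = 0.000289). It stood at 0.17 on the Western diet alone. Ehhadh, a peroxisomal oxidation enzyme, was 0.58 ± 0.17 higher, beside 0.05 on the Western diet alone, and Hadhb, the thiolase subunit of the mitochondrial trifunctional protein, 0.38 ± 0.11 beside 0.25. Their calls were lost in 17 and 14 of 30 alternatives. The direct differences between the 2 Western diets did not pass limma's test for Slc25a20 (0.22, adjusted p = 0.094), Ehhadh (0.53, adjusted p = 0.14) or Hadhb (0.14, adjusted p = 0.68).

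Pdk4, the kinase that shuts off pyruvate dehydrogenase when fat is burned, ran from 8.30 to 9.63 (median 8.77) in control mice and from 9.37 to 10.91 (median 10.13) in quercetin mice. It was 1.29 ± 0.19 higher, with quercetin mouse 3 alone within the control range. Plin2 and Plin5, coat proteins of lipid droplets, were 0.58 ± 0.09 and 0.92 ± 0.16 higher, and Cox8b, a cytochrome oxidase subunit typical of muscle and brown fat, 1.26 ± 0.27. Pdk4 was the only 1 called of 19 genes of pyruvate dehydrogenase and the tricarboxylic acid cycle (median −0.06), beside 5.00% of all genes called higher. Without quercetin array 3, and without the arrays high in markers of neighbouring tissues, 3 of the 19 were lower. Plin5 was the only 1 called of 11 lipolysis and lipid droplet genes (median 0.10), and Cox8b of 10 thermogenic genes (median −0.02). Plin2 was counted with the lipid-associated macrophage genes and is no member of the lipid droplet list. Few nuclear-encoded respiratory chain genes were called. Of 72, 1 was higher and 1 lower (median −0.03, which turned to 0.08 without scaling and to 0.06 when arrays were shifted to one median), against 0 higher and 40 lower on the Western diet alone (median −0.18). Between the 2 Western diets 5 of the 72 were called higher with quercetin. Without quercetin array 3, 8 of the 72 were lower than control, and 5 without the arrays high in markers of neighbouring tissues. The lower gene, Ndufv2, a complex I subunit, went from 11.19 to 11.74 (median 11.35) to 10.91 to 11.46 (median 11.12), −0.28 ± 0.07. Branched-chain amino acid catabolism gave 1 higher and 0 lower of 20 genes with quercetin, beside 5.00% and 1.65% of all genes. On the Western diet alone it gave 0 higher and 11 lower, and none of the 20 was called between the 2 Western diets. The median with quercetin was −0.05. Without quercetin array 3 or control array 6 the counts were 1 higher and 2 lower, and without the arrays high in markers of neighbouring tissues 0 higher and 4 lower (median −0.25).

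Genes that stayed below the control diet included enzymes of hormone and amino acid metabolism. Of 14 prostaglandin and leukotriene enzymes 4 were called higher and 1, Ptges, lower, with 7 differences positive and 7 negative (median −0.02). Leaving out single arrays gave 1 to 4 higher. Both without scaling and without the arrays high in markers of neighbouring tissues 1 was higher and 1 lower. Ptges, the inducible prostaglandin E synthase, went from 7.24 to 10.78 (median 8.50) to 6.51 to 8.87 (median 6.89), −1.53 ± 0.36 (limma adjusted p = 0.0111), and 8 of 9 quercetin mice lay below the control range. The exception was quercetin mouse 3 at 8.87. Hsd11b1, which turns inactive into active glucocorticoid, showed the same arrangement, 10.45 to 12.45 (median 10.97) against 9.45 to 11.42 (median 9.82), with mouse 3 alone above 10.43 (−1.33 ± 0.27). Prodh, proline dehydrogenase, went from 7.63 to 9.36 (median 8.10) to 6.60 to 7.89 (median 6.92), −1.35 ± 0.23. Agt, angiotensinogen, went from 8.66 to 11.11 (median 9.81) to 8.20 to 9.47 (median 8.51), −1.12 ± 0.25. On the Western diet alone these genes stood at −2.08 (Ptges), −1.26 (Hsd11b1), −1.34 (Prodh) and −1.37 (Agt), and the differences between the 2 Western diets did not pass the test, with limma adjusted p of 0.56, 0.95, 1.00 and 0.76.

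**Figure D5:**
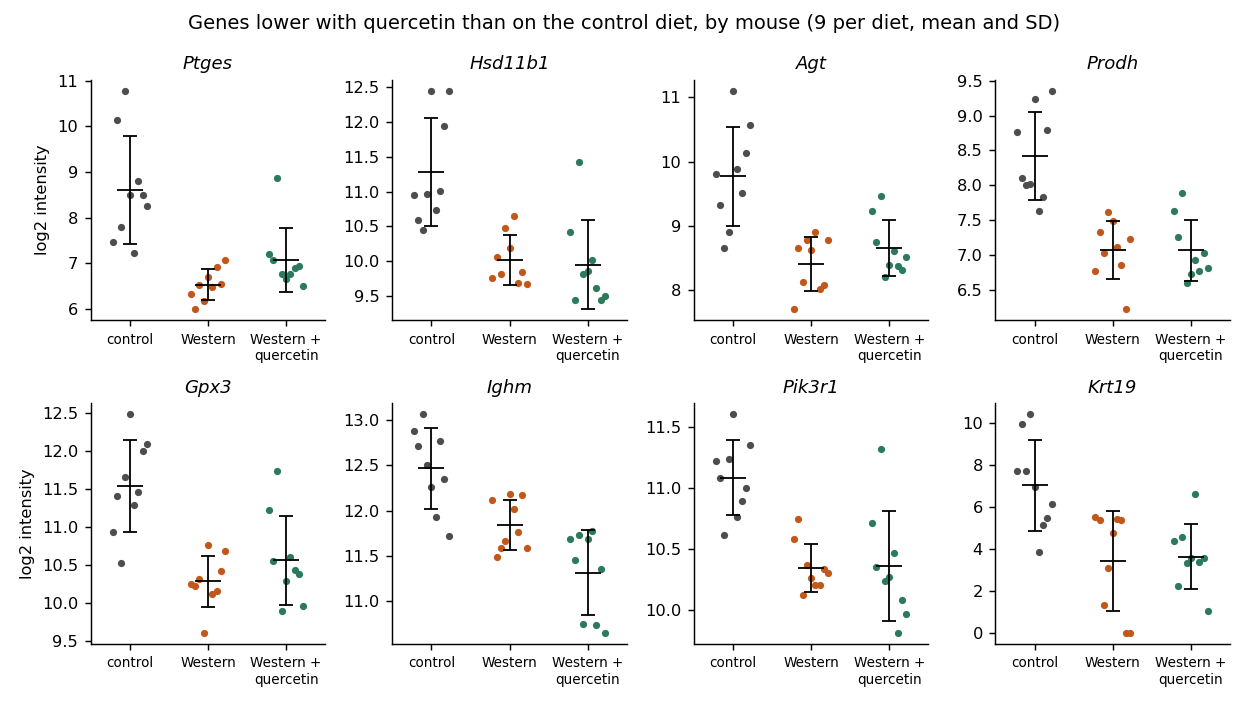
Log2 intensity of 8 genes lower with quercetin than on the control diet (vertical axes) in each mouse of the 3 diets (horizontal axes). Each point is 1 mouse, and the bars are the mean and SD of 9 mice. The quercetin mouse at 8.87 in Ptges and 11.42 in Hsd11b1 is mouse 3.

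Other large falls lay in genes of muscle, mesothelium and antibody-producing cells. Synm, a muscle intermediate filament protein (−1.31 ± 0.40, limma adjusted p = 0.0456), was at 10.84 and 11.98 in control mice 2 and 4, the arrays high in smooth muscle markers, and at 7.41 to 8.74 in the other 7. Without the arrays high in markers of neighbouring tissues it stood at −0.73, and its call was lost in 22 of 30 alternatives. Map1b, a microtubule protein of neurons and mesenchymal cells (−1.28 ± 0.30), was also highest in control mice 2 and 4, at 8.51 and 9.84. The smooth muscle markers were 0 of 10 called, with a median of −0.72, or −0.09 without those arrays, and their part in these falls was not tested. Fmod, fibromodulin of the collagen matrix, was −1.46 ± 0.42, a call lost in 18 of 30.

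Krt19, an epithelial keratin that marks mesothelium, the sheet covering the fat pad, went from 3.86 to 10.42 (median 6.94) to 1.03 to 6.62 (median 3.55), −3.41 ± 0.91 (limma adjusted p = 0.024). All 11 mesothelial markers were negative (median −1.79), of which 1 was called. Of the 11, 8 were called without quercetin array 3, 3 without control array 3, 2 without control array 2, 6, 8 or 9 or quercetin array 1, and 0 without control array 4 or quercetin array 9. Without the arrays high in markers of neighbouring tissues 3 of the 11 were called lower and the median was −2.18, while Krt19 itself stood at −2.82 and was not called. The mean of the list ran from 5.19 to 7.58 on the control arrays and from 3.30 to 6.28 on the quercetin arrays.

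The genes of the largest falls included 3 immunoglobulin genes. Ighm, the heavy chain of IgM, went from 11.72 to 13.06 (median 12.50) to 10.65 to 11.78 (median 11.46), with 7 of 9 quercetin mice below the control range. It was −1.15 ± 0.18 (limma adjusted p = 0.000315), beside −0.63 on the Western diet alone, and 3 of its 11 probe sets went the other way. Jchain, which links the units of secreted IgM and IgA, went from 7.04 to 11.76 (median 9.06) to 3.94 to 9.37 (median 6.52), and the light chain segment Igkv8-30 from 7.35 to 12.93 (median 9.70) to 4.56 to 10.08 (median 6.71). Control mouse 3, whose array was high in B cell and lymph node stroma markers, had the highest value of all 3 genes, 13.06, 11.76 and 12.93. Without the arrays high in markers of neighbouring tissues Ighm stood at −1.37, Jchain at −1.88 and Igkv8-30 at −2.54, of which Ighm alone was called. Of 11 B cell markers 0 were called (median −0.31). The calls of Jchain and Igkv8-30 were lost in 21 and 13 of 30 alternatives. Light chain segments resemble each other, so the identity of Igkv8-30 is uncertain.

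Antioxidant and detoxifying genes went both ways. Of 19 antioxidant enzymes 2 were higher and 2 lower, and of 15 glutathione transferases 2 were higher and 2 lower. When 1 array was left out, antioxidant enzymes called higher ran from 1 to 4 (without control array 3, with 3 without quercetin array 3) and those called lower from 1 to 3 (without control array 6), and the transferases gave 1 or 2 in each direction. Gpx3, the secreted glutathione peroxidase, went from 10.52 to 12.49 (median 11.47) to 9.89 to 11.74 (median 10.44), −0.98 ± 0.23. Gsta4, which conjugates the lipid peroxidation product 4-hydroxynonenal, was −1.09 ± 0.30, with 7 of 9 quercetin mice below the control range, beside −2.14 on the Western diet alone. The difference between the 2 Western diets, 1.05, did not pass the test (limma adjusted p = 0.11). Gstt3, a theta class transferase, was −0.80 ± 0.19, and Mgst2, a microsomal transferase, 0.84 ± 0.18 higher. Sod1, the cytosolic superoxide dismutase, was −0.24 ± 0.07 (limma adjusted p = 0.0402) and Cat, catalase, 0.30 ± 0.09 (limma adjusted p = 0.0496), with calls lost in 16 and 23 of 30 alternatives.

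Few insulin signalling genes were called. Of 18, 2 were lower and 0 higher (median −0.17), with 3 lower without quercetin array 1 or 3 or control array 3 and 4 lower without control array 1 or 6 or without the arrays high in markers of neighbouring tissues. Pik3r1, the regulatory subunit of phosphoinositide 3-kinase, went from 10.61 to 11.60 (median 11.08) to 9.81 to 11.32 (median 10.27), with 7 of 9 quercetin mice below the control range (−0.73 ± 0.15, limma adjusted p = 0.00431). Pdpk1, the kinase that activates Akt, was −0.30 ± 0.08. On the Western diet alone they stood at −0.74 and −0.37.

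A set of 22 genes had also been assayed by RT-PCR, and 21 of them had a single-gene probe set. With quercetin 4 were called higher than on the control diet, 1 lower and 16 not called, and those not called lay between −0.44 and 0.82. The called ones were Adgre1, Itgax, Cat and Sod1, given above, and Ncf4, an NADPH oxidase subunit (0.70 ± 0.20, limma adjusted p = 0.0392, lost in 17 of 30 alternatives). Lep, leptin, ran from 10.50 to 12.91 (median 11.94) in control mice and from 11.15 to 12.72 (median 12.59) in quercetin mice (0.59 ± 0.25, limma adjusted p = 0.158). Its quercetin values kept to 12.46 to 12.72 in 8 mice, and mouse 3 lay at 11.15. The chemokine Ccl2 stood at 0.75 ± 0.37 (limma adjusted p = 0.24), the mannose receptor Mrc1 at 0.37 ± 0.13 (limma adjusted p = 0.0771) and the cytokine Il10 at 0.69 ± 0.31 (limma adjusted p = 0.18). Tnf, measured at low intensity with medians of 3.88 and 3.79, and Rela, the p65 subunit of NF-κB, with medians of 9.76 and 9.80, differed by 0.09 ± 0.52 and 0.04 ± 0.06, and Il2ra, an interleukin receptor, by 0.29 ± 0.21. The oxidase subunits Cybb, Cyba and Ncf1 stood at 0.82 ± 0.29, 0.76 ± 0.26 and 0.54 ± 0.26 and did not pass (limma adjusted p of 0.0795, 0.0717 and 0.22), beside 1.65, 1.53 and 1.39 on the Western diet alone. Nox4, an oxidase of non-phagocytic cells and no member of the RT-PCR set, was 0.88 ± 0.18 higher. Of the 6 measured NADPH oxidase subunits 2 were higher (median 0.73), with 4 without quercetin array 3, 5 without control array 3 and 1 without any 1 of 11 other arrays. None of the 6 was called between the 2 Western diets. Hmox1, heme oxygenase (0.74 ± 0.29), Nqo1, a quinone reductase (0.29 ± 0.15), Nfe2l2, which encodes the antioxidant factor NRF2 (−0.08 ± 0.09), and Ppargc1a, a coactivator of mitochondrial genes (−0.44 ± 0.26), were not called. A p above the threshold does not show that the levels were equal.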

How the data were processed

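RNA of single mice had been hybridised to Affymetrix whole-genome mouse arrays. The deposited values are linear intensities per probe set (45101, of which 64 controls) the authors produced in the Affymetrix suite and GeneSpring. Array medians from 25.2 to 54.4 show no common scale. Probe sets were named through the platform annotation, and 34741 single-gene probe sets were matched to RefSeq by gene identifier. In all, 34945 had 1 gene, 932 several and 9160 none. Intensities were quantile normalized over 45037 non-control probe sets of all 27 arrays, set to at least 1 and taken to log2. Per gene the probe set with the highest mean was kept (18193 genes). limma 3.58.1 (R 4.3.3) fitted 3 diet means with a variance trend, and p-values were Benjamini-Hochberg adjusted over all genes. The spread behind each SE and p was estimated over all 27 arrays. The number of arrays limits precision.

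Genes were named by rule: the 10 largest changes in each direction above the median mean, the 10 smallest p, up to 3 called members per list (or the one with the smallest p), genes measured by RT-PCR in the study, and tissue markers. Hmgcs1, Scarb1, Npc2, Ctsd, Glb1, Lamp1, Pla2g2e, Ptger3, Ccni, Sf1, Usp7, Fau and Plin2 lie outside this rule and were chosen after their values were seen. The comparison, its lists (57) and tests were chosen with earlier results of these data known. Some genes are in several lists, among them Lipa, Npc2, Atp6v0d2, Fcer1g and Itgam, so the list counts are not independent. The sterol motif search was added after the values were seen. No 2 arrays were duplicates (highest correlation 0.963). Alternatives covered scaling, floors, probe set choice, the variance model, the methods' test (a test over the 3 diets, then Tukey's test), thresholds, a replicate block and leaving out arrays. The fit was tested on simulated data. Figures were drawn with matplotlib 3.10.9.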

Additional observations from a re-analysis of the deposited data

Results flagged for a closer look

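In 204 groups of 9 values of the named genes, 10 held a value apart from the other 8 by Dixon's test, by which chance marks about 1 group in 20. Quercetin mouse 3 gave 6 of the 10. It was low for Maoa at 8.55, Lep at 11.15 and Hmox1 at 5.83, and high for Ptges at 8.87, Hsd11b1 at 11.42 and Ndufv2 at 11.46. Without this mouse Ptges stood at −1.76, Hsd11b1 at −1.52, Maoa at 0.70 and Ndufv2 at −0.32 against the control diet, all still called by limma. Elsewhere, quercetin mouse 1 was low for Scarb1 at 9.82, quercetin mouse 6 was high for Map1b at 7.79, control mouse 1 was high for Pltp at 12.34 and control mouse 4 was high for Fau at 12.68. What sets quercetin mouse 3 apart was not tested.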

How the results depend on the processing

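Of the 87 named genes that were called, 41 kept their call under each of the 30 alternatives that gave them a value, and 46 lost or turned it at least once. Against 910 higher and 301 lower genes, no scaling between arrays gave 268 and 38, and a shift to one median 371 and 130. Every probe set by itself gave 1394 and 620 probe sets, genes with any probe set past the threshold 1177 and 534, array weights 1074 and 667 (61.7% higher), and a fit of only the 2 diets 348 and 89. In that last fit 33 of the 87 called named genes lost their call. A threshold of 0.01 left 243 and 56, and a 2-fold minimum 139 and 58. Genes without overlap, 42 higher and 4 lower, were 14 and 0 without scaling and 18 higher with one median.

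Leaving out single arrays gave 545 (without quercetin array 7) to 1410 (without control array 3) higher genes and 158 (without quercetin array 4) to 597 (without control array 6) lower genes. Quercetin arrays 4, 7, 8 and 9 each moved both counts by over 1.5 times, to 549 and 158, 545 and 168, 594 and 183, and 551 and 163. Control arrays 4, 5 and 9 did so for the lower count, to 192, 193 and 198, and quercetin array 3 raised it to 452. Leaving out all arrays high in markers of other tissues gave 549 and 414 (57.0% higher).

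Some small or multi-probe values turned. A floor of 32 gave 0.00 for Htr2b and Il10 and −0.043 for Tnf. The mean of all probe sets gave −0.087 for Zap70, −0.049 for Cd8a and 0.012 for Ccni. Rela turned to −0.029 with array weights and −0.062 without the arrays high in markers of other tissues. Leaving out single arrays took Tnf between −0.15 and 0.32 and Rela between −0.012 and 0.064. The causes were not tested.

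Replicate numbers did not pair the mice. Same-numbered control and quercetin mice correlated between −0.325 and 0.183, and 1 of 9 correlated best with its own number. With the replicate block 808 genes were higher and 245 lower. Low-intensity genes such as Htr2b, Tnf and Il10 lie near background, and their differences depend on the floor.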
